A study of Mus musculus with 32 samples.

Results

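The transcripts of 38 genes that repair DNA double-strand breaks and interstrand crosslinks were followed through 8 sorted fractions of young and aged mouse bone marrow. The 38 genes were taken by symbol from a table of raw counts for 24421 genes, and all 38 were present and passed the filter on low counts that left 14154 genes for testing. The fractions were hematopoietic stem cells (HSCs), multipotent progenitors MPP1 to MPP4, granulocyte and macrophage progenitors (GMPs), progenitors of megakaryocytes and red cells (MEPs) and common lymphoid progenitors (CLPs). Each was sorted by surface markers from untreated female C57BL/6 mice of 10 weeks (young) or 20 months (aged), with no genetic modification named and 2 libraries per fraction and age (32 in all). Marrow was pooled within an age before sorting, and the labels do not tie the duplicates to separate mice, so the p-values here measure only the spread between these libraries. In such bulk samples fewer cells that transcribe a gene and less RNA per cell cannot be told apart.

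A double-strand break is bound by the MRN complex (Mre11a, Rad50 and Nbn), which activates the kinase Atm, while exposed single strands activate Atr. The break is then either joined directly, by the Ku dimer (Xrcc5 and Xrcc6), the kinase Prkdc and the ligase Lig4 with its partners, or cut back and copied from the sister chromatid by homologous recombination, which needs Brca1, Brca2 and their partners. Homologous recombination works when a sister chromatid is present, in S and G2 phase, whereas end joining works throughout the cell cycle and serves HSCs, which are mostly quiescent. The Fanconi anemia genes unhook crosslinks at stalled replication forks, and their loss depletes HSCs in mice and humans.

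Several of these genes carry binding letters of the E2F factors, which drive genes of the G1 to S transition, close to their start. Promoter sequences of RefSeq (GRCm38.p6, from 250 bases before to 50 bases after a start) were matched for 29 of the 38 genes. An E2F 8-mer (TTTGGCGC, TTTGCCGC, TTTCGCGC or TTTCCCGC, on either strand) was found in 7 of them (24.1%), against 2.6% of 27025 genes overall and 46.9% of 32 matched DNA replication genes. The 7 were Bard1, Brca2, Chek2, Fancg, Mdc1, Rad51c and Xrcc6. The windows of 4 of them are shown because these genes behaved differently across the fractions, with the 8-mer or its reverse complement in capitals and each window written 5′ to 3′ on the strand of its gene.
Bard1: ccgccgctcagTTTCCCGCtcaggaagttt
Brca2: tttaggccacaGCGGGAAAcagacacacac
Xrcc6: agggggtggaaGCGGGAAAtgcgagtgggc
Mdc1: tcttcagcctgTTTCCCGCcggtagccgca
They lie at chr1:71103163-71103192 (minus strand), chr5:150522442-150522471 (plus), chr15:82016312-82016341 (plus) and chr17:35841471-35841500 (plus), and each 8-mer is upstream of the start. The CCAAT box was found in 16 of the 29 promoters (55.2%, against 41.1% of all genes), and TTTGAA, the core letters of the cell cycle homology region, in 3 (10.3%, against 20.2%). The 3 motifs were counted on both strands and separately from each other. A match describes these letters only, and the lack of an E2F 8-mer, as for Rad54l, Brca1 and Blm, says only that its letters are not in this window.

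Total counts ranged from 11237384 to 17723245 per library. Levels are given as TMM-scaled CPM (counts divided by the scaled library total, times a fixed factor), and a gene is said to rise or fall when the adjusted p of the edgeR quasi-likelihood test was under 0.01. Transcripts of the sort antigens matched the gates in part. Slamf1 (CD150) had 52.4 to 55.4 CPM in young HSCs, Flt3 1059 to 1066 in young MPP4, and Il7r 157 to 159 in young CLPs. Il7r was at 0 in young HSCs, MPP1 and GMPs and in aged MPP1 and GMPs. It had 9.99 to 16.8 CPM in young MEPs, which were gated without its protein, against up to 5.94 in the young MPPs. Cd34 had 202 to 206 CPM in young HSCs, gated without CD34, against 651 to 1632 in the young MPPs, and Ly6a (Sca-1) reached 22.7 in 1 of the 2 young GMP libraries (0.829 in the other). Some antigen transcripts also differed by age. Of the 8, 5 fell and 0 rose in MEPs, and 2 rose and 1 fell in CLPs. Ly6a had 34.4 to 35.9 CPM in young and 207 to 221 in aged CLPs, and Fcgr3 23.1 to 23.6 and 1.93 to 3.94. In MEPs Il7r had 9.99 to 16.8 and 0.187 to 0.430. The part of these shifts in the repair results was not tested. Exons of 13 of the 38 genes overlap another gene of the table (for example Fanci with Polg, Fanca with Zfp276, Rad54l with Lrrc41 and Xrcc6 with Desi1), and since no use of strand was stated for the counts, their values may include reads of the neighbour.

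Across the 16 groups, 29 of the 38 genes had their lowest mean level in HSCs of 1 of the 2 ages (23 of them in young HSCs), and 24 had their highest in MEPs. The spread between the highest and the lowest group was widest for Fancd2, the Fanconi protein that is ubiquitinated at a crosslink, at 26.1-fold (2.79 CPM in young HSCs and 72.8 in young MEPs). It was 22.7-fold for Fanca, a scaffold of the Fanconi core complex, and 19.2-fold for Bard1, the partner of Brca1. At the other end it was 2.08-fold for Fancc, 2.16-fold for Nhej1 and 2.28-fold for Mdc1. Relative to young HSCs the median gene was higher on the log2 scale by 0.73 (young MPP1), 1.11 (MPP2), 0.89 (MPP3), 0.83 (MPP4), 1.12 (GMPs), 1.48 (MEPs) and 1.197 (CLPs).

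**Figure D1:**
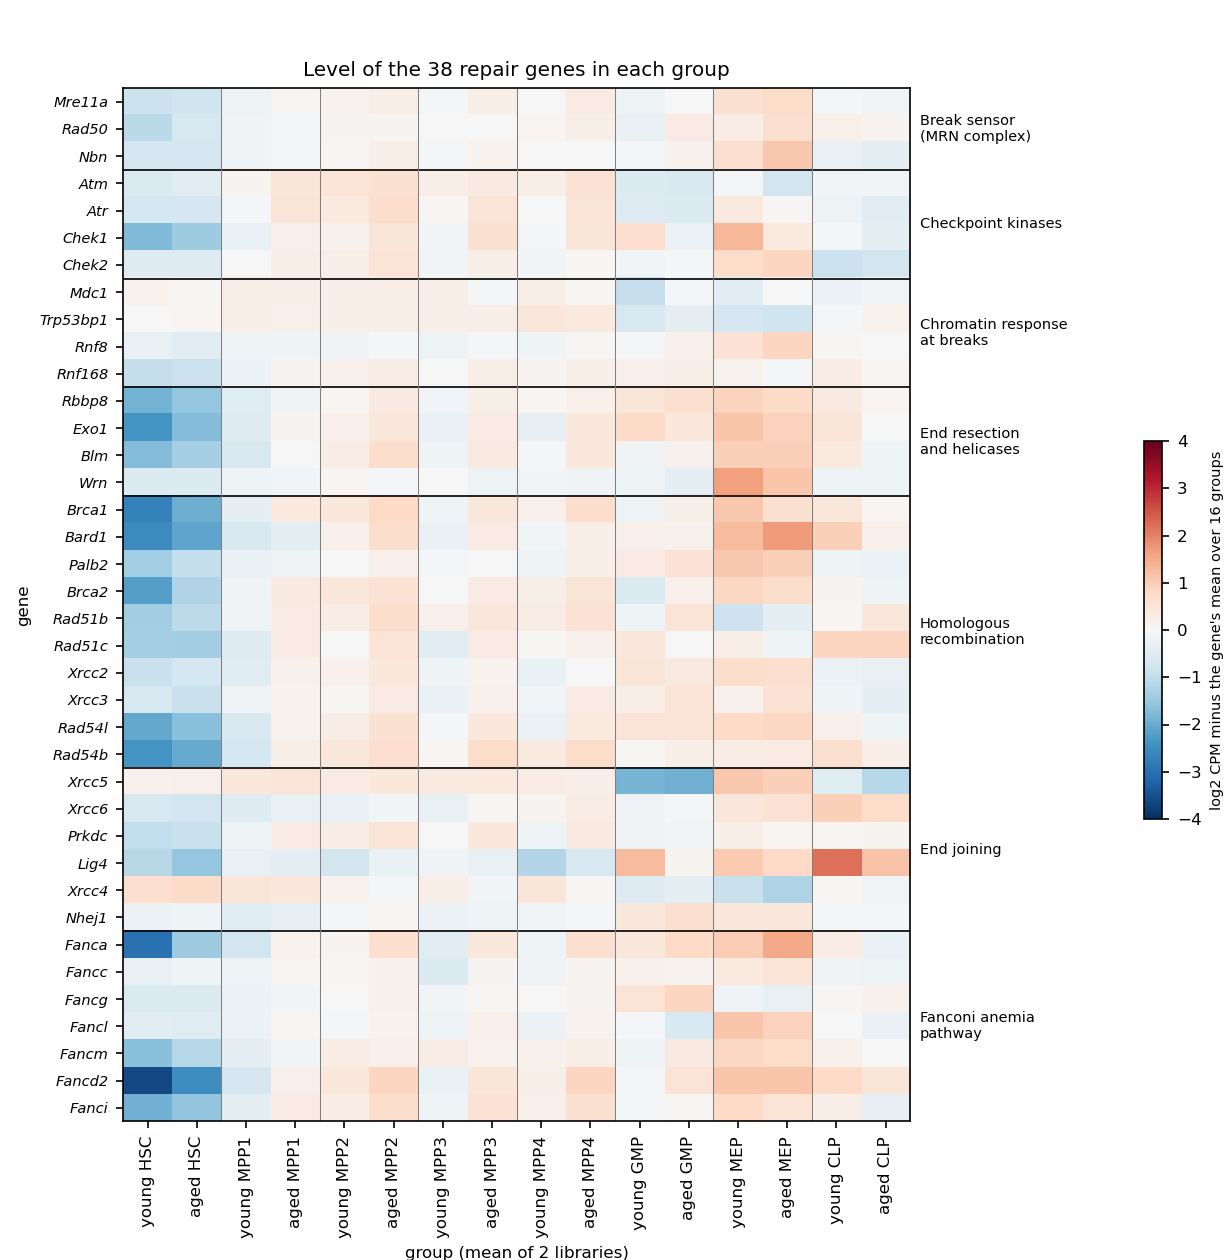
Mean log2 CPM of each repair gene (rows, grouped by role) in each of the 16 groups (columns), as the difference from the gene's own mean over the groups. The HSC columns are the lowest for most rows, with Fancd2 and Fanca lowest of all, while Xrcc4 runs the other way and Xrcc5 is low in GMPs (14.6 CPM in young and 14.1 in aged).

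In young HSCs 30 of the 38 genes were lower than the mean of young MPP1 to MPP4 and 0 were higher, while 18.9% of all genes tested were lower and 19.2% higher (38.1% in either direction). All 10 homologous recombination genes, all 4 genes of end resection and helicases, all 4 checkpoint kinases and all 3 MRN genes were among the 30, with 5 of 7 Fanconi genes. Fancd2 (chr6:113531682-113597017) had 2.51 and 3.06 CPM in the young HSC libraries and between 21.1 and 45.3 in the 8 young MPP libraries, so the groups were far apart (log2 fold change -3.52, SE 0.15, adjusted p 4.19e-14). Rad54l, a translocase that helps strand exchange, had 18.6 and 19.2 CPM against 50.01 to 98.8 (-1.90, SE 0.07, adjusted p 4.38e-15). Exo1, the exonuclease that cuts back break ends, had 10.4 CPM in both against 37.2 to 65.3 (-2.16, SE 0.09, adjusted p 2.08e-14). Fanci (-1.91, SE 0.10), Fanca (-2.67, SE 0.16) and Brca1 (-2.75, SE 0.17) followed, with adjusted p of 4.55e-13, 9.73e-12 and 1.5e-11. The 8 genes that did not pass were Mdc1, Rnf8, Xrcc5, Lig4, Xrcc4, Nhej1, Fancc and Fancl, so that 4 of the 6 end joining genes were among them. Xrcc5 had 60.1 and 59.6 CPM in young HSCs and 62.6 to 71.0 in the young MPPs, and Xrcc4, the scaffold of Lig4, had 16.1 and 20.7 against 11.4 to 16.3. Leaving out young HSC replicate 2 gave the lowest count, 21.

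In young MEPs 25 genes were higher and 4 lower than in the young MPPs, against 31.3% and 39.5% of all genes (70.8% in either direction). In the same contrast 9 of 10 B-lineage genes were higher and 1 lower (241 to 248 CPM summed in young MEPs, none at 0). Of 12 immediate early genes, which respond to handling, 10 were lower and 0 higher. They summed to 234 to 326 CPM in young MEPs (Fos and Atf3 at 0) against 11322 to 18327 in the young MPPs. The part of both lists in these differences was not tested. Exo1 had 122 and 114 CPM (1.34, SE 0.06, adjusted p 2.35e-14) and Wrn, the helicase lost in Werner syndrome, 275 and 247 against 74.3 to 89.1 in the MPPs (1.68, SE 0.09, adjusted p 6.01e-14). No other fraction had a Wrn level above 89.1 in a young library, and aged MEPs had 179 and 187. Fancl, the ubiquitin ligase that modifies Fancd2 and Fanci, had 53.3 and 46.0 against 19.0 to 22.5 (1.29, SE 0.07, adjusted p 4.7e-13). Rad54l (0.93, SE 0.06), Chek1 (1.39, SE 0.08) and Xrcc6 (0.72, SE 0.06) were the next by adjusted p (8.62e-13, 9.8e-13 and 1.03e-10). Trp53bp1, which shields break ends from resection, fell to 48.6 and 54.5 CPM against 93.3 to 116 (-0.97, SE 0.08, adjusted p 3.6e-10). Mdc1, which binds the phosphorylated histone at breaks, was lower by -0.68 (SE 0.14, adjusted p 0.000155), Xrcc4 by -1.23 (SE 0.16, adjusted p 2.95e-07) and Rad51b, a gene of homologous recombination, by -0.98 (SE 0.15, adjusted p 3.84e-06).

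In young GMPs 12 genes were higher and 7 lower than in the young MPPs, with 32.1% and 32.7% of all genes (64.9% in either direction). The 12 were thus near the share of all genes, and the 7 under it. The split depended on the setting: 9 and 9 with DESeq2 size factors, 10 and 8 with no filter on low counts, 10 and 10 by DESeq2, and 12 and 11 with offsets for GC content and length. Without young GMP replicate 1 the count was 14 (8 higher), and Palb2, Xrcc2, Xrcc3, Nhej1 and Fancc were among the higher calls lost. Xrcc5 (chr1:72307421-72394952) had 10.97 and 18.2 CPM in young GMPs and 12.5 and 15.76 in aged GMPs, below every library of the other fractions (22.2 or more), and differed from the young MPPs by -2.21 (SE 0.14, adjusted p 3.1e-12). Its partner Xrcc6 had 138 and 131 CPM in the same libraries and was not called there. Per kilobase of exon the Xrcc5 level was 0.190 of the Xrcc6 level in young GMPs and 0.177 in aged GMPs, 0.233 and 0.169 in CLPs, but 1.11 and 1.24 in HSCs and 0.960 and 0.807 in MEPs. These 2 subunits form the Ku dimer, and the ratio of their transcripts was thus lower in GMPs and CLPs than in HSCs and MEPs. The ratio uses the exon length pooled over all annotated transcripts, and Xrcc6 overlaps Desi1. The same lengths were used in every fraction, but reads of Desi1 could differ between fractions, which was not tested. The ratio also does not give how alike the 2 levels are. Exo1 (0.98, SE 0.07, adjusted p 1.38e-11), Rad54l (0.67, SE 0.06, adjusted p 5.16e-10) and Chek1 (0.74, SE 0.09, adjusted p 9e-08) were higher. Trp53bp1 (-0.94, SE 0.08, adjusted p 9.02e-10) and Mdc1 (-1.17, SE 0.15, adjusted p 2.97e-07) were lower, as were Atm, Atr, Brca2 and Xrcc4. For Atr (-0.63) the direction turned with offsets for GC content and length, and the call of Brca2 was lost with them (adjusted p 0.0156). Of 12 immediate early genes 10 were lower and 0 higher in the same contrast. They summed to 387 to 396 CPM in young GMPs (Atf3 at 0) against 11322 to 18327 in the young MPPs. Their part in these differences was not tested.

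In young CLPs 14 genes were higher and 4 lower, with 28.2% and 25.2% of all genes (53.4% in either direction). Of the 6 end joining genes 2 were higher and 1 lower, and of the 10 homologous recombination genes 5 were higher. With the replicate block within fraction the split was 10 and 5. In the same contrast 6 of 7 basophil and mast cell genes (1740 to 1788 CPM summed in young CLPs, Cma1 and Tpsab1 at 0), 9 of 10 neutrophil genes (1937 to 1992) and 6 of 10 macrophage genes (331 to 362) were higher, and their part in these differences was not tested. Lig4 (chr8:9969049-9977686), which seals the joined ends and is needed for V(D)J recombination in lymphocytes, had 11.6 and 11.2 CPM (141 and 138 counts), while the young MPP libraries had 1.05 to 2.57 (15 to 37 counts). The groups were far apart (2.78, SE 0.20, adjusted p 7.98e-11). Lig4 was also higher in young GMPs (5.98 and 5.81 CPM, 1.83, SE 0.21, adjusted p 8.92e-08). Xrcc6 had 288 and 283 CPM in young CLPs against 100.02 to 173 in the young MPPs (1.19, SE 0.05, adjusted p 3.58e-14), while Xrcc5 fell (-0.83, SE 0.12, adjusted p 3.51e-06). Fancd2 (0.87, SE 0.10, adjusted p 6.57e-08) and Exo1 (0.71, SE 0.07, adjusted p 8.6e-09) were higher. Chek2, a checkpoint kinase activated by Atm, was lower (-0.86, SE 0.12, adjusted p 2.11e-06), with Trp53bp1 (-0.34) and Mdc1 (-0.48). Without either young CLP library the count was 10. The 4 comparisons with young MPPs share the 8 young MPP libraries.

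**Figure D2:**
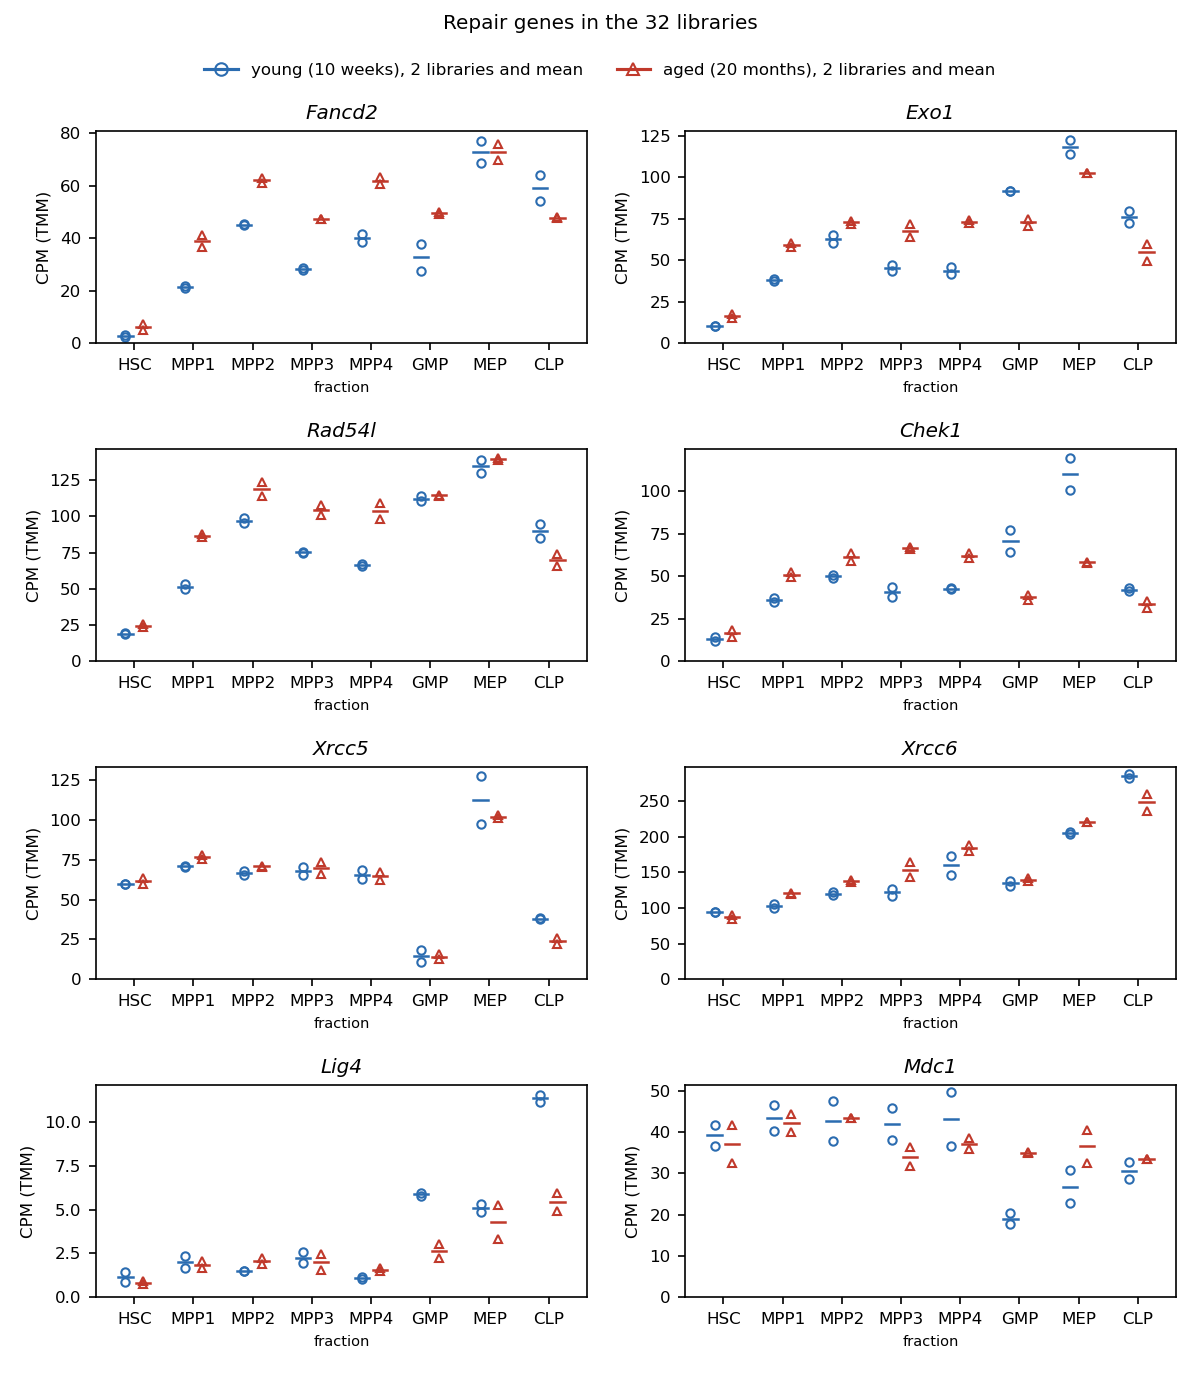
CPM (vertical axis, from 0) of 8 repair genes in each library, by fraction (horizontal axis), with young libraries as circles, aged libraries as triangles and short lines for the mean of 2. Fancd2, Exo1 and Rad54l are low in HSCs and higher in aged than in young MPPs, Chek1 is lower in aged GMPs and MEPs, Xrcc5 is low in GMPs at both ages, and Lig4 is highest in young CLPs (11.6 and 11.2 CPM).

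Most of the 38 genes moved with the genes of DNA replication across libraries. Over the 32 libraries the median Pearson r of a repair gene with the mean of 40 DNA replication genes was 0.80, and 22 of 38 (57.9%) were above 0.7, against a median of -0.12 and 10.7% of all 14154 genes. The 67 other repair genes had a median of 0.70, with 50.7% above 0.7. Exo1 (0.99) and Rad54l (0.99) were the closest, and Rbbp8 and Fanca (0.97 each) came next. Xrcc4 (-0.78), Trp53bp1 (-0.40) and Mdc1 (-0.36) ran against replication, and Xrcc5 (-0.05) and Atm (0.19) were near 0. These r are descriptions over libraries that share fractions and ages, and a gene that differs between HSCs and all other fractions gets a high r from that alone. Of the genes with an E2F 8-mer, Bard1 had 0.94, Brca2 0.85, Rad51c 0.72, Xrcc6 0.67, Fancg 0.58, Chek2 0.57 and Mdc1 -0.36. Only Mdc1 among these ran against replication. Rad54l, Blm (0.94) and Brca1 (0.93), without an E2F 8-mer in the window, were as close to replication as Bard1. Fancd2 was closer to the mean of 30 mitosis genes (0.98) than to replication (0.95), and Chek1 the reverse (0.80 and 0.92). By pattern over the 16 group means, the 5 genes outside the list that were most like the mean of the 38 were Trim37, Ncapd3, Mms22l, Ska1 and Nsl1, with r of 0.978 to 0.984.

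**Figure D3:**
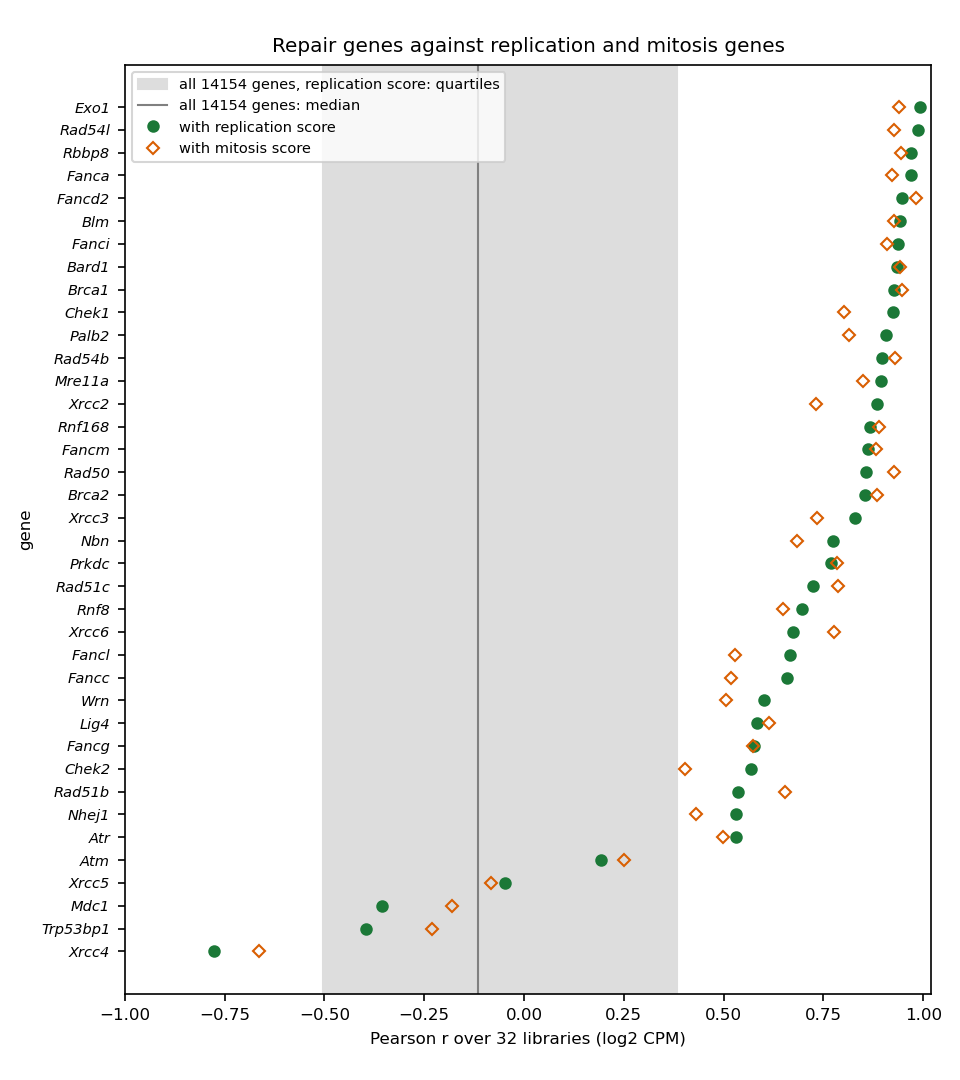
Pearson r over 32 libraries (horizontal axis) of each repair gene (rows, sorted) with the replication score (filled circles) and the mitosis score (open diamonds), each score being a mean over its genes. The grey band and line span the lower to upper quartile and mark the median of the r of all 14154 genes with replication. From Exo1 down to Rad51c the circles are above 0.7, and Xrcc4 is the farthest below 0.

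With age, 22 of the 38 genes (57.9%) were called in at least 1 fraction and 16 in none, and of all genes tested 46.2% were called in at least 1. Chek1, Exo1, Rad54l, Fancl and Fanci were called higher in some fractions and lower in others. Fanca, Fancd2 and Rad54l rose in 5 fractions each, Exo1 and Fanci in 4 and Chek1 in 3.

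In aged HSCs 5 of the 38 genes rose and 0 fell, while 3.74% of all genes rose and 1.66% fell (5.4% in either direction). Fanca (chr8:123268300-123318576) had 3.64 and 4.37 CPM in young HSCs and 10.5 and 13.1 in aged HSCs (log2 fold change 1.55, SE 0.19, adjusted p 1.13e-05). Its groups did not overlap, but both aged HSC libraries also lay above both young ones for 25.4% of all genes tested, and below for 20.2%. Exo1 went from 10.4 in both young libraries to 15.4 and 17.5 (0.66, SE 0.11, adjusted p 0.000267). Fancd2 went from 2.51 and 3.06 to 7.11 and 5.02 (1.10, SE 0.20, adjusted p 0.000676), from 31 and 47 counts to 91 and 75. Brca2, a mediator of homologous recombination, went from 11.1 and 5.93 to 19.2 and 15.1 (1.03, SE 0.22, adjusted p 0.00411), and its young libraries differed from each other by almost as much as the ages did. Rad54l rose by 0.38 (SE 0.08, adjusted p 0.00509). Even so, aged HSCs stayed below the young MPPs in each of these genes: their highest Fanca library (13.1 CPM) was under the lowest young MPP library (18.4). The 3 MRN genes, 4 checkpoint kinases, 4 chromatin response genes and 6 end joining genes held 0 calls, and the median of all 38 was 0.10 on the log2 scale against 0.02 for all genes. Of the cell cycle lists, 16 of 40 replication and 23 of 30 mitosis genes rose in the same libraries. Of 10 neutrophil genes 6 rose, from 137 to 147 CPM summed to 326 to 405, with none at 0. Of 7 basophil and mast cell genes tested 4 rose, from 0.978 to 1.62 CPM to 10.3 to 18.2 (Gzmb, Cma1 and Tpsab1 at 0 at both ages and Prss34, Mcpt8 and Fcer1a in young HSCs), and 2 of 10 macrophage genes fell, from 72.2 to 85.2 CPM to 35.3 to 50.6. Immediate early genes went from 18854 to 19190 CPM to 20423 to 23115 (3 of 12 rose). Their part in the repair results was not tested. The count was 3 without young HSC replicate 1, 2 without young replicate 2, 2 without aged replicate 1 and 3 without aged replicate 2, and Fanca was called in all 4 cases (adjusted p up to 0.000773). Brca2 lost its call without young replicate 2 or aged replicate 1 (adjusted p up to 0.177), Fancd2 without young or aged replicate 1 (up to 0.0222), Exo1 without replicate 2 of either age (up to 0.0125) and Rad54l without any 1 of the 4 (up to 0.0802). A fit of the 4 HSC libraries alone gave 0 calls (Fanca adjusted p 0.0132).

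In the MPPs the calls with age were rises. Over the mean of MPP1 to MPP4, 23 of 38 genes rose and 0 fell, while 18.9% of all genes rose and 17.7% fell (36.7% in either direction), and 20 of the 23 were called with any 1 of the 16 MPP libraries left out (counts from 20 to 24). With offsets for GC content and length 23 rose and 1 fell, with these and the replicate block 25 and 1, and by DESeq2 24 and 1, and 4 of the 38 fold changes were negative in the edgeR fit. They were 8 of 10 homologous recombination genes, 5 of 7 Fanconi genes, 3 of 4 checkpoint kinases, 3 of 4 genes of end resection and helicases, 2 of 6 end joining genes (Xrcc6 and Prkdc), Mre11a and Rnf168. The mean rise was 0.54 for Rad54l (SE 0.04, adjusted p 2.14e-10), 0.55 for Exo1 (SE 0.04, adjusted p 2.8e-09) and 0.55 for Fanci, the partner of Fancd2 (SE 0.05, adjusted p 9.39e-09). It was 0.67 for Fancd2 (SE 0.06, adjusted p 2.16e-08), 0.77 for Fanca (SE 0.07, adjusted p 2.23e-08) and 0.51 for Chek1 (SE 0.06, adjusted p 2.64e-07). The 15 genes that did not pass were Rad50, Nbn, Atm, Mdc1, Trp53bp1, Rnf8, Wrn, Palb2, Brca2, Xrcc5, Lig4, Xrcc4, Nhej1, Fancg and Fancm. In the same contrast 40 of 40 replication genes and 27 of 30 mitosis genes rose. Erythroid marker genes went the other way: 8 of 10 fell, with a summed level of 539 to 1610 CPM in young and 171 to 356 in aged MPPs and none at 0, and 9 of 10 macrophage genes fell. Of 10 neutrophil genes 6 fell and 0 rose. By fraction, 6 of them fell in MPP2 and 7 in MPP3, but 0 were called in MPP1 and MPP4. In MPP3 they summed to 4314 to 4566 CPM in young and 1908 to 1948 in aged libraries. Their part in the repair results was not tested.

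In aged MPP1 10 genes rose and 0 fell, with 4.71% and 2.09% of all genes (6.8% in either direction). In aged MPP2 2 rose and 0 fell, with 4.49% and 3.31% (7.81%), so the rises there were near the share of all genes. In aged MPP3 the counts were 12 and 0, with 8.14% and 5.79% (13.9%), and in aged MPP4 7 and 0, with 10.3% and 6.27% (16.6%). In MPP1 Rad54l (chr4:116094264-116123690) had 50.01 and 53.0 CPM in young and 85.9 and 87.8 in aged libraries (0.75, SE 0.08, adjusted p 1.25e-06). Exo1 (37.2 and 38.9, then 58.2 and 60.4), Fanci, Fancd2, Rad54b and Fanca followed, and Brca1, Xrcc2, Chek1 and Blm completed the 10. In MPP3 Fanci had 44.6 and 41.2 CPM in young and 69.9 and 74.3 in aged libraries (0.75, SE 0.10, adjusted p 1.57e-05), followed by Exo1, Rad54l, Chek1, Fanca and Fancd2. In MPP4 Rad54l had 67.2 and 65.5 against 98.3 and 109 (0.64, SE 0.07, adjusted p 2.06e-06), followed by Exo1, Fanca, Fancd2, Chek1 and Mre11a. In MPP2 Rad54l (0.30, SE 0.07, adjusted p 0.0085) and Fanci (0.39, SE 0.10, adjusted p 0.0091) passed narrowly. The young and aged libraries did not overlap for any gene whose values are given here, but such separation was common among all genes. Both aged libraries lay above both young ones for 29.5% to 32.3% of genes tested in MPP1 to MPP4, and below for 32.8% to 36.4%. In MPP1 the count was 6 without young replicate 1, 5 without young replicate 2 and 6 without either aged replicate, and Rad54l, Exo1, Fanci, Fancd2 and Rad54b were called in all 4 cases. In MPP2 it was 0 whichever of the 4 libraries was left out. In MPP3 it was 6 without young replicate 1 and up to 9 otherwise, and Fanci, Exo1, Rad54l, Chek1, Fanca and Fancd2 were called in all 4 cases. In MPP4 it was 4 whichever library was left out, and Rad54l, Exo1 and Fanca were called in all of them. By edgeR, the age difference in HSCs differed from that of the MPPs for 0 of 38 genes. Of all genes 3.01% differed, 1.91% toward a rise and 1.1% toward a fall. The count was 3 by DESeq2, and 8 at an unadjusted p under 0.05 in the edgeR test. The share of all genes at these settings is not given here, so these counts have no background.

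**Figure D4:**
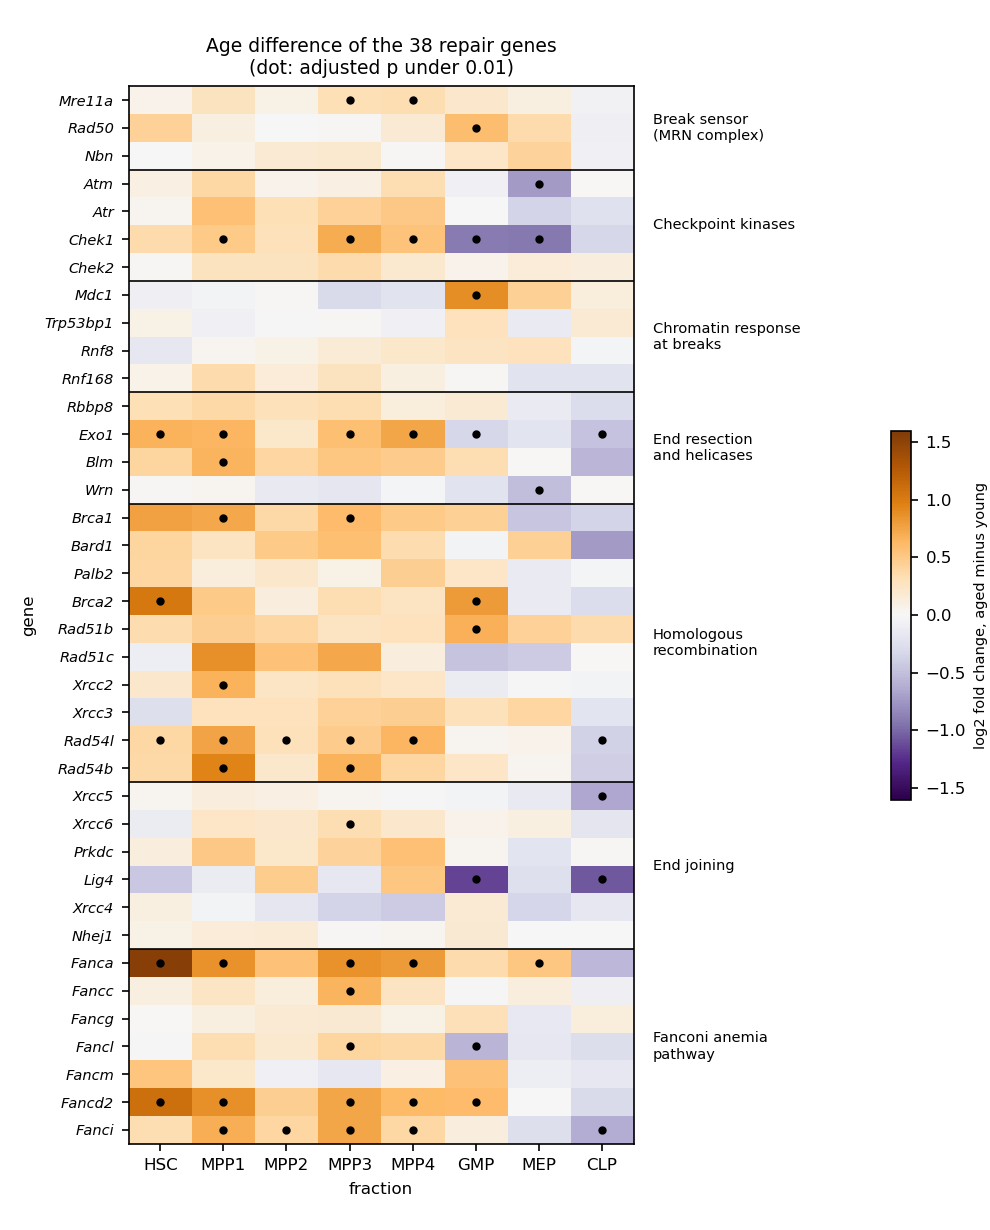
Log2 fold change of aged over young cells (colour) for each repair gene (rows, grouped by role) in each fraction (columns), with a dot where the adjusted p was under 0.01. Dots from HSCs to MPP4 are all on rises, dots in CLPs are all on falls, and GMPs and MEPs hold both.

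Aged GMPs showed rises and falls, and both counts were near the shares of all genes tested. Here 5 genes rose and 4 fell, with 9.93% and 8.97% of all genes (18.9% in either direction), and with offsets for GC content and length 6 rose and 2 fell. Chek1 (chr9:36708482-36727065), the kinase that slows replication when forks stall, had 64.05 and 77.1 CPM in young and 36.2 and 39.1 in aged GMPs (-0.91, SE 0.12, adjusted p 7.17e-06). Fancl had 22.8 and 22.3 against 15.66 and 14.8 (-0.57, SE 0.11, adjusted p 0.000421), but this call was lost with offsets for GC content and length (adjusted p up to 0.184). Lig4 had 5.98 and 5.81 against 3.04 and 2.23 (-1.16, SE 0.29, adjusted p 0.00481), with 84 counts in each young library and 34 and 25 in the aged ones, and Exo1 fell by 0.33 (SE 0.09, adjusted p 0.00692). Mdc1 rose from 20.4 and 17.6 CPM to 34.8 and 35.2 (0.88, SE 0.18, adjusted p 0.000723) and Rad50 from 65.4 and 71.1 to 108 and 97.4 (0.59, SE 0.12, adjusted p 0.000903). Fancd2 (0.61, SE 0.13, adjusted p 0.00113), Brca2 (0.81, SE 0.19, adjusted p 0.00305) and Rad51b (0.68, SE 0.17, adjusted p 0.00507) rose as well. In these libraries 12 of 40 replication genes fell and 3 rose, while 25 of 30 mitosis genes rose. Of 12 immediate early genes, which respond to handling, 10 rose, with a summed level of 387 to 396 CPM in young and 3278 to 3707 in aged GMPs (Atf3 at 0 in young GMPs), and 6 of 10 erythroid genes fell, from 1107 to 1270 down to 47.0 to 124 CPM (Epor at 0 in aged GMPs). Their part in these differences was not tested. The count was 5 without young GMP replicate 1, 4 without young replicate 2, 3 without aged replicate 1 and 4 without aged replicate 2. Chek1 and Fancl were called in all 4 cases, Mdc1 in all but that without young replicate 2 (adjusted p 0.0183) and Rad50 in all but those without replicate 1 of either age (up to 0.0227). Lig4, Exo1 and Brca2 lost their call whichever library was left out (adjusted p up to 0.0751), Lig4 also with offsets for GC content and length, and Fancd2 and Rad51b kept theirs only without young replicate 1.

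In aged MEPs 1 gene rose and 3 fell, with 9.08% and 11.7% of all genes (20.8% in either direction), so both counts were under these shares. With DESeq2 size factors the counts were 0 and 3, and with the replicate block 2 and 3. Chek1 had 101 and 120 CPM in young MEPs and 58.1 and 58.3 in aged MEPs (-0.92, SE 0.11, adjusted p 2.69e-06), and it was called with any of the 4 libraries left out. Wrn went from 275 and 247 to 179 and 187 (-0.51, SE 0.12, adjusted p 0.00231), and Atm, the kinase that answers to breaks, from 36.8 and 45.3 to 27.0 and 22.6 (-0.73, SE 0.20, adjusted p 0.00821). Fanca was the gene that rose, from 54.1 and 73.1 to 81.7 and 99.998 (0.52, SE 0.14, adjusted p 0.00713). The groups of these 4 genes did not overlap, but in MEPs both aged libraries also lay above both young ones for 28.4% of all genes tested, and below for 28.2%. The count was 2 without aged MEP replicate 1 and 1 without aged replicate 2. Wrn was called only without young replicate 2 (adjusted p otherwise up to 0.0270), Atm only without young replicate 1 (up to 0.0859), and Fanca lost its call without young replicate 1 or aged replicate 2 (up to 0.191), with offsets for GC content and length, with DESeq2 size factors and with no filter on low counts. Among the B-lineage genes 8 of 10 fell in the same libraries, from a summed 241 to 248 CPM to 2.44 to 3.18, with Cd79a, Pax5, Ebf1, Igll1 and Ms4a1 among those at 0 in aged MEPs. Immediate early genes went from 234 to 326 CPM to 713 to 1084 (5 of 12 rose, Fos and Atf3 at 0 in young MEPs and Atf3 in aged). Their part in these differences was not tested.

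In aged CLPs 5 genes fell and 0 rose, with 4.73% and 5.71% of all genes (10.4% in either direction). Fanci had 58.7 and 59.6 CPM in young and 34.7 and 42.1 in aged CLPs (-0.62, SE 0.10, adjusted p 0.000163), and Exo1 79.9 and 72.5 against 49.7 and 59.8 (-0.48, SE 0.09, adjusted p 0.000654). Rad54l had 85.2 and 94.9 against 65.6 and 74.2 (-0.37, SE 0.07, adjusted p 0.00151). Xrcc5 went from 38.3 and 37.7 to 22.2 and 25.8 (-0.66, SE 0.15, adjusted p 0.00385), and Lig4 from 11.6 and 11.2 to 4.94 and 5.94 (-1.06, SE 0.27, adjusted p 0.00834), from 141 and 138 counts to 64 and 80. The groups did not overlap for these 5, but in CLPs both aged libraries also lay below both young ones for 30.4% of all genes tested, and above for 29%. In the same libraries 15 of 40 replication genes and 13 of 30 mitosis genes fell. The young libraries held more transcripts of some other cell types. Of 7 tested basophil and mast cell genes 6 fell, from 1740 to 1788 CPM to 8.26 to 12.3 (Cma1 and Tpsab1 at 0 at both ages, Prss34 in aged CLPs). Of 10 neutrophil genes 9 fell, from 1937 to 1992 CPM down to 347 to 367. Of 10 macrophage genes 7 fell and 1 rose, but their summed level was 331 to 362 CPM in young and 302 to 417 in aged CLPs. Among B-lineage genes 8 of 10 fell, from 3335 to 3382 CPM to 1751 to 1822, and of the immediate early genes 8 of 12 fell, from 6745 to 7403 CPM to 2172 to 3853. Their part in these differences was not tested. The 2 aged libraries differed, with 750.2 CPM of erythroid genes in replicate 1 and 113 in replicate 2. Replicate 1 was also the lower in replication genes (8225 CPM summed, against 9684 in replicate 2) and in mitosis genes (4874 against 6020). Without aged CLP replicate 1 the count was 0, and without either young replicate it was 2. Fanci was called in the other 3 cases (adjusted p 0.0114 without aged replicate 1), Exo1 and Rad54l in 2 of the 4 (up to 0.0335 and 0.0585), Xrcc5 in 1 (up to 0.0807) and Lig4 in 0 (up to 0.104). A fit of the 4 CLP libraries alone gave 0 calls.

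The age differences of the restricted progenitors were then tested against the mean difference of the MPPs. In CLPs 15 of 38 genes differed, all toward a fall (12.3% of all genes in that direction, 10.3% in the other), and the count was 10 without aged CLP replicate 1. Rad54l differed by -0.91 (SE 0.08, adjusted p 6.84e-08), Fanci by -1.18 (SE 0.11, adjusted p 1.09e-07), Exo1 by -1.02 (SE 0.10, adjusted p 1.35e-07) and Fanca by -1.32 (SE 0.17, adjusted p 2.95e-06). Fancd2 (-0.98, SE 0.14, adjusted p 1.5e-05), Chek1, Blm, Rad54b, Xrcc6, Brca1, Fancl, Bard1, Xrcc5, Lig4 and Rnf168 were the others. Of the 15, 10 were called with any of the 20 libraries left out, while Brca1, Bard1, Xrcc5, Lig4 and Rnf168 lost the call without aged CLP replicate 1 (Rnf168 in 16 of the 20 cases, adjusted p up to 0.0138, 0.0114, 0.0274, 0.0353 and 0.0624 over all cases). Lig4 also lost the call without either young CLP replicate, and Xrcc5 without young CLP replicate 1. In MEPs 10 genes differed, all toward a fall (14.7% of all genes, 10.2% in the other direction), led by Chek1 (-1.43, SE 0.13, adjusted p 3e-08), Exo1 (-0.75, SE 0.10, adjusted p 4.59e-06) and Fanci (-0.80, SE 0.11, adjusted p 7.55e-06), with Rad54l, Brca1, Fancd2, Fancl, Atm, Atr and Rnf168. Fancl and Rnf168 were not called with offsets for GC content and length, Rnf168 was also lost without any of 7 single libraries (adjusted p up to 0.0771), Atr without 3 (up to 0.0348) and Atm without 2 (up to 0.0227). In GMPs 6 genes differed toward a fall (13.8% of all genes) and 2 toward a rise (12.7%). Chek1 (-1.42, SE 0.13, adjusted p 5.63e-08), Exo1 (-0.88, SE 0.10, adjusted p 7.22e-07), Fancl (-0.89, SE 0.12, adjusted p 5.31e-06), Rad54l, Lig4 and Fanci were on the lower side, and Mdc1 (1.01, SE 0.20, adjusted p 0.000308) and Rad50 (0.52, SE 0.14, adjusted p 0.00422) on the higher. Rad50 lost this call without replicate 1 of either GMP age (adjusted p up to 0.056), Fanci without 3 of the 4 GMP libraries (up to 0.0538), and Lig4 without young GMP replicate 1 or aged replicate 2 (up to 0.0361) and with the offsets (up to 0.0147). With the offsets the GMP split was 7 toward a fall and 4 toward a rise, and the MEP split 8 and 1. The 3 comparisons share the 16 MPP libraries. In the same tests 37, 31 and 31 of the 40 replication genes differed toward a fall in CLPs, MEPs and GMPs.

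**Figure D5:**
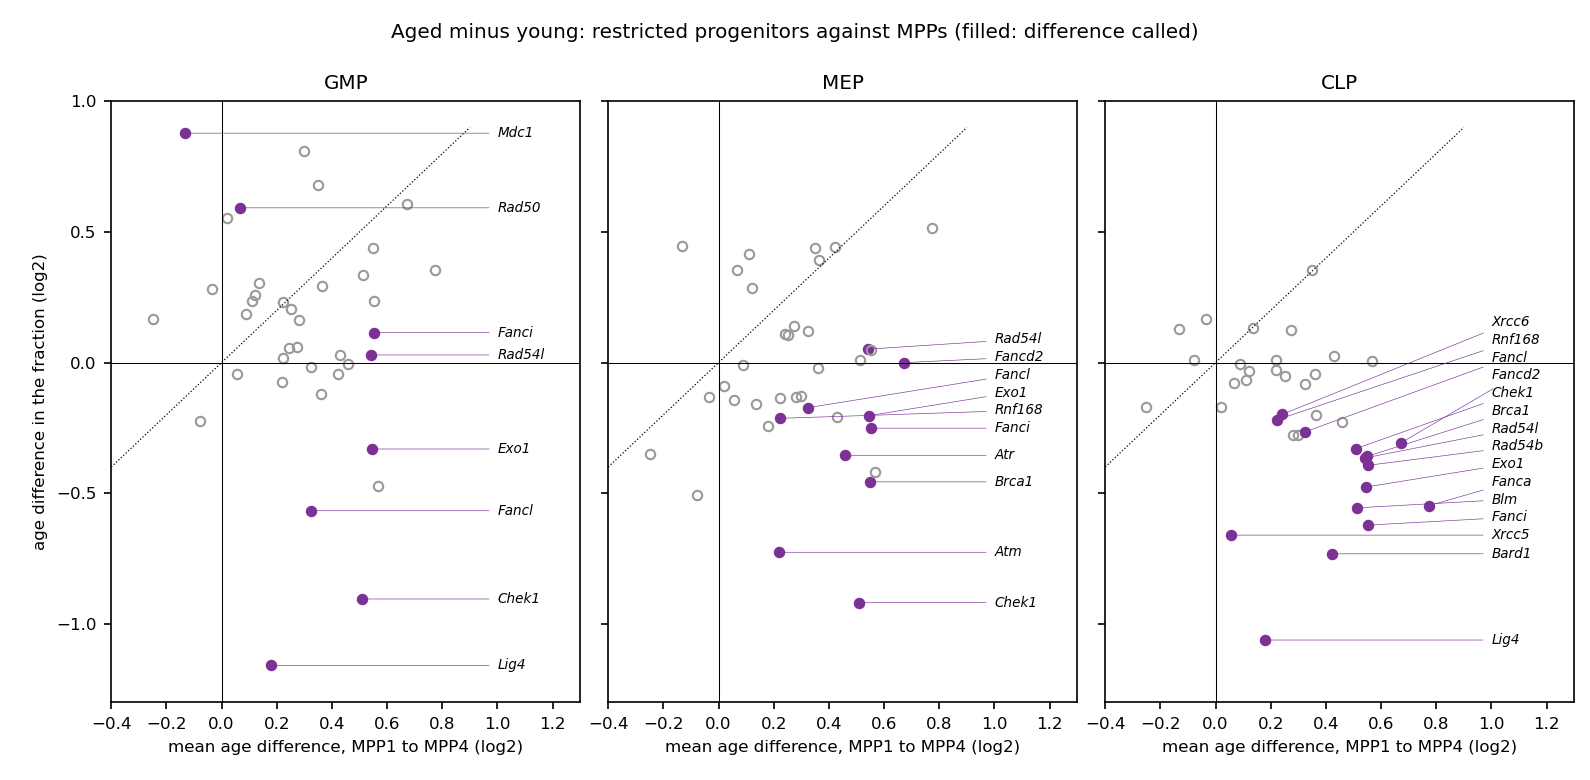
Age difference of each repair gene in GMPs, MEPs and CLPs (vertical axis, log2, aged minus young) against its mean age difference over MPP1 to MPP4 (horizontal axis), with filled and named points where the difference between the 2 was called and a dotted line of equality. Chek1 lies far below the line in GMPs and MEPs, Mdc1 and Rad50 lie above it in GMPs, and all 15 named genes of CLPs lie below it.

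The 67 other repair genes tested were counted in the same way, with the share of all genes in each direction in brackets. Rises numbered 3 in aged HSCs (3.74%), 13 in aged MPP1 (4.71%) and 4 in aged MPP2 (4.49%). There were 19 in aged MPP3 (8.14%) and 12 in aged MPP4 (10.3%), and 0 fell in those fractions (1.66% to 6.27%). In GMPs 10 rose (9.93%) and 3 fell (8.97%), in MEPs 10 (9.08%) and 7 (11.7%), and in CLPs 1 (5.71%) and 6 (4.73%). The rises in HSCs and MPP2 and the falls in MEPs were thus near the share of all genes. The scaffold of single-strand break repair, Xrcc1, was the first by adjusted p in both GMPs (0.58, adjusted p 2.29e-06) and MEPs (0.51, adjusted p 5.79e-06), where it rose. Rmi1, a partner of Blm, fell in GMPs (-0.74, adjusted p 3.49e-05) and MEPs (-0.63, adjusted p 0.000102).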

How the data were processed

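RNA of sorted marrow fractions was sequenced in 32 libraries, and the authors deposited raw read counts per gene. Per the labels and the study's methods, reads were aligned to mm10 with TopHat2 2.0.13 and Bowtie2 2.1.0 and further handled with StringTie and DESeq2. How the counter treated strand is not given in the sources used here. Deposited normalized values and tables of the authors' own comparisons (fold changes and p-values) were not used.

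The counts were scaled by TMM and fitted with edgeR 4.0.16 (R 4.3.3): quasi-likelihood test, filterByExpr, 16 group means over all 32 libraries, Benjamini-Hochberg adjustment within each contrast over 14154 genes, threshold 0.01. Total counts of 11237384 to 17723245 per library limit low genes most. On simulated CLP counts for 14154 genes, 28.8% of changes of 0.5 (log2), 79.1% of changes of 1 and 100% of changes of 2 were called. The changes were placed only in genes above a floor of mean CPM, with the spread taken from the fitted trend over genes. These rates thus do not cover low genes such as Lig4 and Bard1, and may overstate detection in the real libraries.

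The 38 genes and all lists were chosen with earlier results of these data known. Full statistics are given for at most 6 called genes per comparison, by adjusted p, and for genes that moved against others of their role, and further values for these and other members were chosen after they were seen. Of the context lists at most 3 genes per comparison are named. Gene positions are GENCODE M21 (GRCm38). Alternatives were an adjusted p under 0.05, DESeq2 size factors, the DESeq2 1.42.0 test, no filter on low counts, replicate blocks, offsets for GC content and length, fits of the 4 libraries of a fraction, and leaving out each library. Some genes of the context lists are not reported here.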

Additional observations from a re-analysis of the deposited data

Results flagged for a closer look

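The age difference in restricted progenitors differed from the mean age difference of MPP1 to MPP4 for 8 repair genes in GMPs, 10 in MEPs and 15 in CLPs by a test of the difference itself (edgeR interaction contrast). Of all genes tested, 26.6%, 24.8% and 22.6% differed in the same 3 tests. With both directions pooled, the counts for GMPs and MEPs are thus near that background. All 10 genes of MEPs were toward a fall, with 14.7% of all genes in that direction and 10.2% in the other. These 3 tests share the 16 MPP libraries. Chek1, Exo1, Rad54l, Fanci and Fancl were on the lower side in each of the 3, and Mdc1 and Rad50 were on the higher side in GMPs. The MEP call of Fancl was lost with offsets for GC content and length (adjusted p up to 0.155), the GMP call of Fanci without 3 single libraries (up to 0.0538) and that of Rad50 without 2 (up to 0.056). In the same tests 31, 31 and 37 of 40 replication genes were on the lower side.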

How the results depend on the processing

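The counts of called repair genes given here are by age unless another comparison is named. Shares of all genes were given for the main setting only, so these counts have no such background. With an adjusted p under 0.05 the count was 4 in MPP2, 13 in MPP4, 7 in MEPs and 8 in CLPs, 3 for the difference between HSCs and MPPs and 17 for that between MEPs and MPPs. A fit of the 4 libraries of a fraction gave 0 in HSCs, 17 in MPP1, 9 in MPP2, 4 in GMPs, 1 in MEPs and 0 in CLPs. In MPP2 the count was 0 with DESeq2 size factors, 0 with no filter, 5 with offsets for GC content and length, 4 with these and the replicate block, and 4 by DESeq2. For the difference between HSCs and MPPs it was 1 with the offsets, 2 with the offsets and the block, and 3 by DESeq2. Atr in young GMPs against young MPPs reversed to 0.0241 with the offsets, alone and with the block (adjusted p up to 0.837). The cause of these shifts was not tested.

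Replicate numbers did not pair the libraries (r of their deviations between -0.06 and 0.07). With the replicate block the count was 1 for the difference between HSCs and MPPs, and 205 of 206 single calls were kept. With the block within fraction the count was 1 in MPP2, and 183 were kept.

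Leaving out 1 library gave counts of 2 to 3 in HSCs, 5 to 6 in MPP1, 0 in MPP2, 6 to 9 in MPP3, 4 in MPP4, 3 to 5 in GMPs, 1 to 5 in MEPs, 0 to 5 in CLPs and 20 to 24 over the MPPs. For the differences from the MPPs it gave 0 to 2 in HSCs, 6 to 9 in GMPs, 8 to 11 in MEPs and 10 to 17 in CLPs. For young cells against young MPPs it gave 21 to 30 in HSCs, 14 to 20 in GMPs, 27 to 30 in MEPs and 10 to 18 in CLPs. Of 2204 single calls with 1 library left out, 1965 were kept and 0 reversed. Groups of 2 libraries limit each fraction's own calls, and at low counts (Lig4, Bard1) the depth does too.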
